A study of Mus musculus with 12 samples.

Results

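The mouse Reg genes Reg1, Reg3a, Reg3b, Reg3g and Reg4 were examined for the histone marks over them in intestinal crypts and villi. They are 5 of the 21938 protein-coding genes of the GENCODE M21 annotation on the assembled chromosomes, and they were chosen by name. For each gene, the peaks of 8 lists that reached the gene body or 5 kb on either side were taken, together with the peaks along the cluster on chromosome 6 that holds 4 of the 5 genes. Positions are on GRCm38, the assembly that mm10 names.

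The study addressed the removal of the N-terminal tail of histone H3 during intestinal differentiation, and profiled H3 modifications of the mouse small intestine by ChIP-seq. Crypts hold stem, dividing and Paneth cells and were released from minced tissue with EDTA, whereas villi, which carry the differentiated enterocytes, were scraped off with coverslips. Chromatin of each compartment was immunoprecipitated with antibodies against H3K4me3, H3K4me1, H3K27me3, H3K9me3 and H3K9me2, after addition of 5% Drosophila S2 chromatin as spike-in. The sources used here give no strain, age, sex or number of mice for these libraries, and no treatment is named for either compartment. Each compartment and modification had 1 library, so a difference between the compartments cannot be set against a spread and is given with no p-value. The lists hold no read counts, so depth is unknown. In a mixture of cells, fewer cells with a mark and less mark per cell cannot be told apart. The paper reports that part of the H3 in villi has lost its N-terminal tail. It also reports that ChIP-seq intensity at the marked sites fell in villi for the profiled marks other than H3K27me3. Loss of the tail that carries a mark therefore cannot be told apart from a change of the mark at a locus.

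Reg genes encode small secreted proteins with a C-type lectin fold. In the small intestine, Reg3b and Reg3g are released by Paneth cells and enterocytes, bind and kill bacteria and hold them away from the epithelium, and interleukin-22 acting through STAT3 and Toll-like receptor signalling through MyD88 raise their transcription. H3K4me3 marks the start sites of active genes and H3K4me1 marks enhancers and the flanks of start sites, whereas H3K27me3, laid down by Polycomb proteins, and H3K9me3, the mark of heterochromatin, accompany silent chromatin.

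The cluster spans chr6:78370657-78468872, 98216 bp, in the order Reg3b, Reg3d, Reg3a, Reg2, Reg1 and Reg3g. Reg3b, Reg3d and Reg3a lie 2407 and 1843 bp apart. Reg3a and Reg2 are 11795 bp apart, Reg2 and Reg1 14604 bp, and Reg1 and Reg3g 37601 bp. Reg3d and Reg3g are on the minus strand and the others on the plus strand. The nearest protein-coding genes outside the family are Ctnna2, 390957 bp to the left, and Gm20594, 1349043 bp to the right. Reg4 lies apart, on chromosome 3, with Adam30 57986 bp to the left.

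The 250 bases before each RefSeq start site (GRCm38.p6) are shown because these are the stretches over which H3K4me1 differed between the members. They are written 5′ to 3′ on the strand of the gene and end at the base before the start site. Capitals mark matches, on either strand, to 1 of 4 motifs. The letters TATAAA were searched as the core promoter box that positions the polymerase. The letters TTCNNNGAA were searched as the motif of STAT factors, which act downstream of interleukins. The letters AGATAA were searched as the motif of GATA factors, regulators of small-intestinal identity. The letters CAGNTG were searched as the E-box of basic helix-loop-helix factors.

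Reg3g (chr6:78468875-78469124, minus strand): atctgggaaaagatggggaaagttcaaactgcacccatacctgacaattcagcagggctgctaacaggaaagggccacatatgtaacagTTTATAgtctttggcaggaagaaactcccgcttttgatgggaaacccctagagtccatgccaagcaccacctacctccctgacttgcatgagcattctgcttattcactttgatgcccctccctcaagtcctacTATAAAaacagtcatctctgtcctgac
Reg3b (chr6:78370635-78370884, plus strand): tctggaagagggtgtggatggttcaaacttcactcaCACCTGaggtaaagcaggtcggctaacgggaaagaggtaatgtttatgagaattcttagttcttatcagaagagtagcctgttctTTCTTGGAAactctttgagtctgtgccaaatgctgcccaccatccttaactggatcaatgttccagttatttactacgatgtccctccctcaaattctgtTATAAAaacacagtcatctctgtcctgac
Reg3a (chr6:78380459-78380708, plus strand): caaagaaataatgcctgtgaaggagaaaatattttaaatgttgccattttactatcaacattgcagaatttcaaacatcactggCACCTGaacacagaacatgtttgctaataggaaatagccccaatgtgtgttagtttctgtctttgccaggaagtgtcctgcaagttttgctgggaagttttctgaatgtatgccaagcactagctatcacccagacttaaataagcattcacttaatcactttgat
Reg1 (chr6:78425733-78425982, plus strand): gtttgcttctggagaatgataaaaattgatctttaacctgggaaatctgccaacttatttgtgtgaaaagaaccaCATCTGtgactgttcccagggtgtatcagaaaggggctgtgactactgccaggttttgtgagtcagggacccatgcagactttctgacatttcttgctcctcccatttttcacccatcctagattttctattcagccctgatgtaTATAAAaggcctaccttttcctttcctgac
Reg4 (chr3:98221906-98222155, plus strand): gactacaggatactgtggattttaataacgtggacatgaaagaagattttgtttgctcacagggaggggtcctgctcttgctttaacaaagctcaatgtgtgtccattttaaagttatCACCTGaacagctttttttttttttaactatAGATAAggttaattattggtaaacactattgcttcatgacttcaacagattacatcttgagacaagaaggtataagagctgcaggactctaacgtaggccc

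Reg3b, Reg1 and Reg3g hold TATAAA in the sense direction, at −29 to −24, −30 to −25 and −27 to −22 from the start site, and 12.4% of 32851 RefSeq promoter stretches of this length hold it on either strand. The reverse letters TTTATA also occur in Reg3g at −161 to −156. TTCNNNGAA occurs in Reg3b alone of the 5, at −129 to −121, and in 7.02% of all stretches. AGATAA occurs in Reg4, at −101 to −96, and in 9.99% of all stretches. The E-box letters occur in Reg3b, Reg3a, Reg1 and Reg4 and in 44.8% of all stretches. No match overlaps another. The last 20 bases before the start site are the same in Reg3b and Reg3g, and the longest run that any other pair shares is 11 bases, in Reg3a and Reg3g. These stretches hold few CpG sites, 3 in Reg3b, 2 in Reg4, 1 in Reg3g and none in Reg3a and Reg1, against a median of 6 over all stretches. Their GC content runs from 37.2% in Reg3a and Reg4 to 47.2% in Reg3g, under the median of 52.4%.

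H3K4me1 was the mark that reached the windows of the most members, as it also was over all protein-coding genes, and its counts were near those shares. The members differed in how far it carried over to villi. In crypts it reached the windows of Reg3b, Reg3a, Reg1 and Reg3g, 4 of 5 members, where 69.2% of all protein-coding genes had such a peak. In villi it reached Reg3a, Reg1 and Reg3g, 3 of 5, against 68.9% of all genes. The same members had an H3K4me1 peak within 1 kb of a coding start site, a criterion met by 57.7% of all genes in crypts and 55.9% in villi. H3K4me3 was found at 1 member in crypts, Reg3g, and at none in villi, whereas 63.3% and 63.6% of all genes had an H3K4me3 peak in the window. Within 1 kb of a start site the counts were the same, 1 and 0 members, against 57.5% of all genes in crypts and 57.7% in villi. H3K27me3 reached Reg4 in crypts and Reg1 and Reg4 in villi, with 17.9% and 23.0% of all genes as background. H3K9me3 reached the window of Reg1 in both compartments, where 3.91% of all genes had a peak in crypts and 3.12% in villi, and it lay within 1 kb of a start site of no member, as for all but 0.378% and 0.310% of genes. The H3K9me2 lists, of 6 regions in crypts and 3 in villi, had no region at a member or in the cluster.

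**Figure D1:**
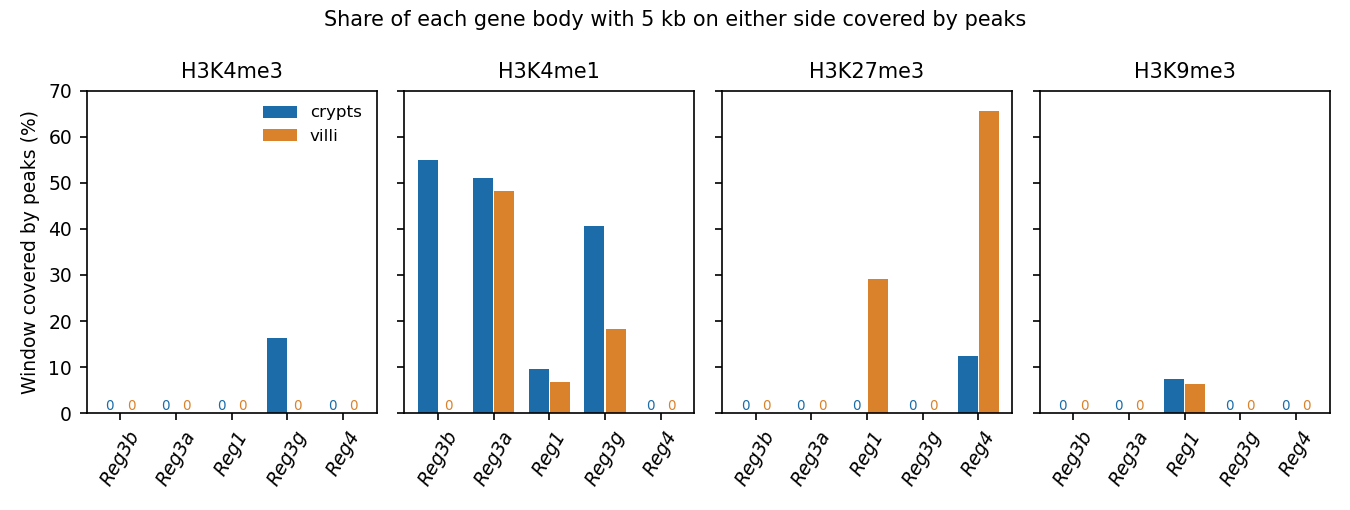
Bars give the percent of each member's window (gene body and 5 kb on either side) that peaks covered, with 1 panel per modification, crypts in blue and villi in orange, 1 library each. A printed 0 means that no peak reached the window. H3K4me1 covered 54.9% of the Reg3b window in crypts and none in villi, and H3K27me3 covered 12.3% of the Reg4 window in crypts and 65.6% in villi.

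Reg3g (ENSMUSG00000030017.2, chr6:78466269-78468872, 2604 bp), a lectin that kills Gram-positive bacteria, was the member with an H3K4me3 peak. The peak was found in crypts, at chr6:78466602-78468654, and was 2053 bp wide. It began 220 bp downstream of the RefSeq start site and covered 78.8% of the gene body, exons included. Its score, taken as the −log10 p-value of the peak call, was 10.2 where the lists stop at 10, and 0.406% of the crypts H3K4me3 peaks scored lower. It was thus among the weakest calls of a list whose median score was 173. In villi the nearest H3K4me3 peak lay 3454573 bp away. A window peak in crypts with none in villi was found at 250 protein-coding genes, 1.14%.

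The H3K4me1 peak over Reg3g changed most in rank among the members. In crypts it spanned chr6:78466364-78470577, 4214 bp, from −1703 to 2510 bp of the start site, with a score of 46.1 that was above 93.6% of its list. In villi it spanned chr6:78467480-78469795, 2316 bp, with a score of 10.9 that was above 9.76% of its list. The crypts peak thus held the whole of the villi peak, and the width fell by 0.86 on the log2 scale. Of 38608 H3K4me1 pairs of 1 crypts and 1 villi peak, 5.49% had a lower ratio of widths. A second crypts peak, chr6:78462363-78463271, lay 2998 bp beyond the end of Reg3g, had a score of 11.0 and no counterpart in the villi list, in which 1 peak number is missing in the 18846 bp between the peaks on either side of this position.

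Reg3b (ENSMUSG00000071356.7, chr6:78370657-78373466, 2810 bp) encodes a lectin that acts against Gram-negative bacteria. It was the member of the cluster at which H3K4me1 was listed in crypts alone. Of 7 crypts H3K4me1 peaks at the members 3 had a villi counterpart, and none of the 3 in the Reg3b window did. Over the whole crypts H3K4me1 list 81.7% of the peaks had one. An H3K4me1 window peak in crypts with none in villi was found at 672 genes, 3.06%. The peak over the start site, chr6:78370287-78373106, was 2820 bp wide, covered 87.2% of the gene and scored 20.3, above 51.1% of its list. The peak upstream, chr6:78365913-78367962, was 2050 bp wide and scored 12.6, above 16.3% of its list. The peak downstream, chr6:78373930-78376094, was 2165 bp wide, reached an exon of Reg3d and scored 33.4, above 82.2% of its list. The strongest of them therefore lay downstream of the gene and not at the start site. In villi the H3K4me1 peak nearest to the start site ended 8058 bp upstream of it. The peak numbers in the villi list rise with position, and 2 of them are missing in the 16810 bp between the peaks on either side of Reg3b, so 2 numbered calls of that stretch, whose scores and places are not known here, are not in the list. In crypts no number is missing among the H3K4me1 peaks from the first to the last within 50 kb of the cluster.

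Reg3a (ENSMUSG00000079516.2, chr6:78380709-78383827, 3119 bp), a further lectin of the Reg3 group, kept the widest H3K4me1 peak of the members in both compartments. It covered the whole gene and had nearly the same edges, chr6:78380011-78386312 in crypts and chr6:78379638-78385969 in villi, 6302 and 6332 bp. The overlap was 5959 bp. The scores ranked differently, at 38.7 above 88.2% of the crypts list and at 15.9 above 39.8% of the villi list. Width and rank thus moved apart at this gene. The crypts peak downstream of Reg3b also reached the Reg3a window, 4615 bp upstream of the gene. No H3K4me3, H3K27me3 or H3K9me3 peak reached Reg3b or Reg3a in either compartment.

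Of the neighbours within the cluster that are not members, Reg3d had 3 crypts H3K4me1 peaks in its window, which covered 63.5% of it. They were the peak over the Reg3b start site, the peak downstream of Reg3b, which reaches into the Reg3d gene body, and the Reg3a peak. Reg3d had an H3K4me1 peak within 1 kb of its start site in villi and not in crypts, and this was the edge of the Reg3a peak, 773 bp upstream in villi and 1146 bp in crypts. Reg2 had no peak of the 8 lists in its window. Of the 50-base words of Reg2, 7.54% occur more than once in the cluster, and none of those of the other 5 genes do. Copies outside the cluster were not searched for.

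Reg1 (ENSMUSG00000059654.7, chr6:78422711-78428667, 5957 bp), whose product was first known as a pancreatic stone protein and a growth factor of islet and epithelial cells, was the member with the most kinds of mark. Its H3K4me1 peak lay over the RefSeq start site at 78425983 in both compartments. It was 1540 bp wide in crypts, chr6:78424552-78426091, with a score of 30.3 above 77.4% of its list. In villi it was 1081 bp wide, chr6:78424975-78426055, with a score of 15.0 above 34.4% of its list. The villi peak lay inside the crypts peak, and the width fell by 0.51 on the log2 scale.

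H3K27me3 at Reg1 was listed in villi alone. A peak of 1905 bp, chr6:78425648-78427552, covered the same start site and overlapped the H3K4me1 peak, with a score of 11.6 above 26.0% of its list. Beyond the end of the gene lay chr6:78430496-78431487, with the lowest score of the list, 10.0007, and chr6:78431913-78434628, with a score of 13.1. Of the bases of these, 91.7% and 47.6% are soft-masked as repeats in the reference, against 2.36% for the peak over the start site. The villi list median on chromosomes 3 and 6 was 14.7%. The part of repeats in these peaks was not tested. All 3 scored below the median of the villi list. The nearest crypts H3K27me3 peak was 3976737 bp from the start site. In the crypts list 6 peak numbers are missing in the 9611336 bp between the peaks on either side of the cluster, and in the villi list 2 are missing between the first and the second of these 3 peaks. An H3K27me3 peak in the window in villi with none in crypts was found at 1283 genes, 5.85%, and within 1 kb of a start site H3K27me3 had 0 members in crypts and 2, Reg1 and Reg4, in villi, against 13.0% and 16.0% of all genes. Among H3K27me3 pairs of the whole lists, 4736 in number, the median width was also greater in villi, by 0.32 on the log2 scale.

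Of the marks with a peak at Reg1 in both compartments, H3K9me3 differed less in width and in rank than H3K4me1. The peak spanned chr6:78419928-78421100 in crypts and chr6:78419973-78421002 in villi, 1173 and 1030 bp, and lay 1611 and 1709 bp upstream of the gene. It scored 15.0 and 14.0, above 72.9% and 68.8% of the lists. Of its bases 91.3% and 93.8% are soft-masked as repeats in the reference, against a list median on chromosomes 3 and 6 of 48.9% in crypts and 46.4% in villi. Reads were aligned with 1 reported place per pair, and the part of this in the peak was not tested. A second crypts H3K9me3 peak of the cluster, chr6:78439794-78440694, lay between Reg1 and Reg3g, outside the window of either gene. It was 901 bp wide, scored 10.7 and is 93.0% soft-masked.

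Along the whole cluster H3K4me1 covered a larger share than on the chromosome as a whole in both compartments. Crypts had 7 peaks that covered 18079 bp, 18.4% of the cluster, where 3.71% of chromosome 6 was covered. Villi had 4 peaks that covered 10632 bp, 10.8%, against 3.63% of the chromosome. All 4 villi peaks overlapped a crypts peak, and 4 of the 7 crypts peaks overlapped a villi peak, where 82.1% of all villi and 81.7% of all crypts H3K4me1 peaks did so. H3K4me3 covered 2.09% in crypts, at Reg3g, and none in villi, against 0.923% and 0.922% of the chromosome. H3K27me3 covered none of the cluster in crypts and 5.71% in villi, against 0.720% and 1.24% of the chromosome. H3K9me3 covered 2.11% in crypts and 1.05% in villi, against 0.0815% and 0.0543% of the chromosome.

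The listed peaks stopped near the cluster. Between Ctnna2 and Gm20594, a stretch of 1838216 bp, the crypts list had 15 H3K4me1 peaks and the villi list 9, and every one of them lay within 50 kb of the cluster. The same held for the other 3 marks in both compartments, and in the 1640 kb farther out there was no peak of the 8 lists. Peak numbers are missing in the gaps between listed peaks that take in this stretch. The most are missing from the crypts H3K9me3 list, 11 in 5472679 bp to the left of its cluster peaks and 14 in 6281036 bp to the right. Where in these gaps the calls lay is not known here. To the left of Reg3b the villi peak chr6:78359721-78362827 overlapped a pair of crypts peaks, and these 3, which ended 7711 to 8696 bp from the gene, were the nearest to its left beyond the 5 kb limit. To the right of Reg3g 4 H3K4me1 pairs followed, of which the crypts peak chr6:78491928-78495729 was the strongest, with a score of 41.1 above 90.4% of its list.

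**Figure D2:**
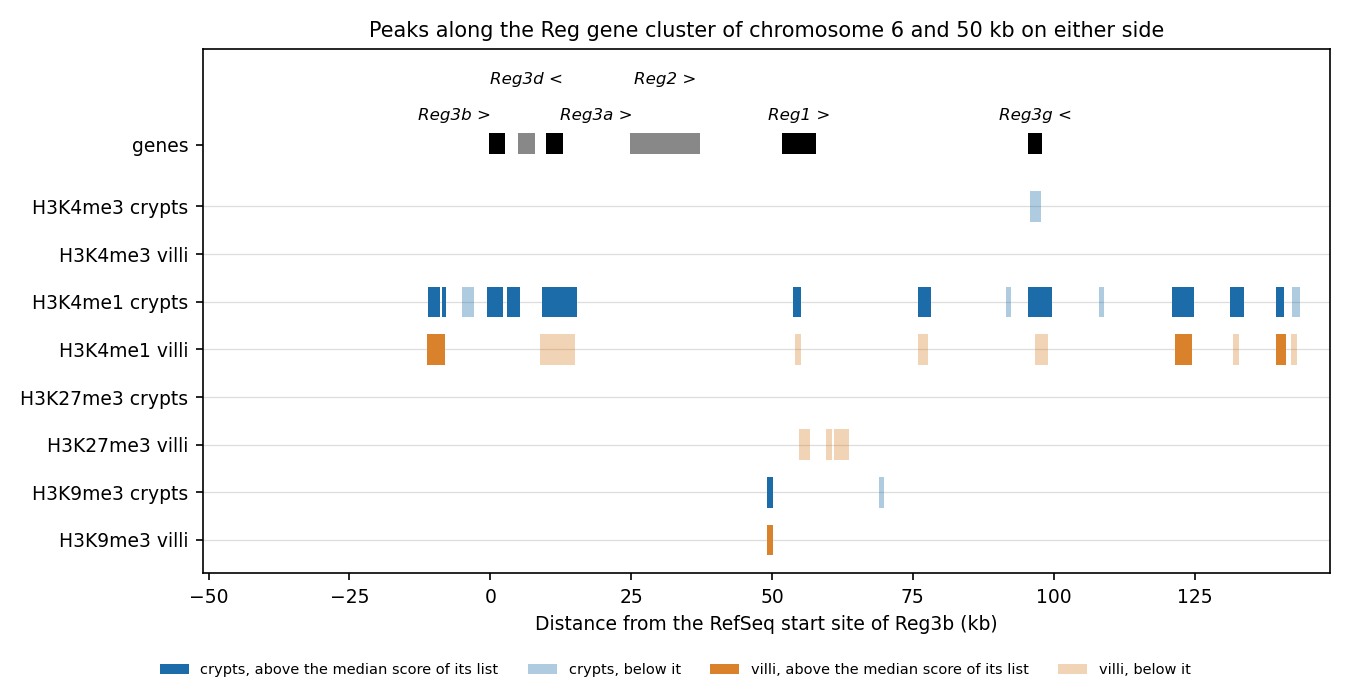
Peaks of the 8 lists are drawn as blocks to scale along the cluster and 50 kb on either side, with the distance in kb from the RefSeq start site of Reg3b on the x axis. Members are black, Reg3d and Reg2 grey, and the sign beside a name gives the strand. Crypts are blue and villi orange, and pale blocks scored below the median of their own list. The 7 crypts and 4 villi H3K4me1 peaks of the cluster, the single H3K4me3 block at Reg3g and the villi H3K27me3 blocks at Reg1 can be seen.

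Where a crypts and a villi H3K4me1 peak of the cluster paired 1 to 1, the villi peak ranked lower. This was so in 3 of 3 pairs at Reg3a, Reg1 and Reg3g, with a median change of −48.4 percentage points and a range from −83.9 at Reg3g to −43.0 at Reg1, whereas 51.1% of all pairs ranked lower in villi and the median change of all pairs was −0.54 points. The villi peak was narrower in 2 of 3 pairs at members, against 50.7% of all pairs. Over the cluster and 50 kb on either side, 8 of 8 pairs ranked lower in villi, with a median of −39.1 points, and 6 of 8 were narrower. The villi peak to the left of Reg3b, which overlapped a pair of crypts peaks and so is not among the 8, ranked above 69.97% of its list, against 69.65% and 64.70% for the crypts peaks. Pairs of 1 locus are not independent of each other, and a rank depends on what else is in its list.

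**Figure D3:**
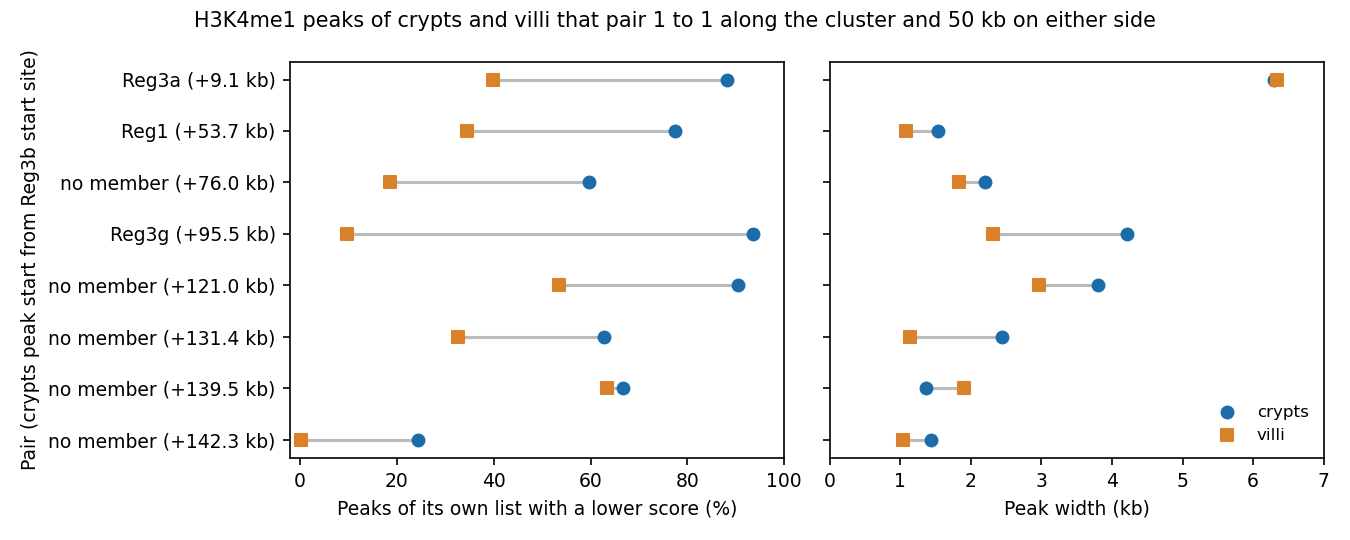
Each line joins the crypts (circle) and the villi (square) H3K4me1 peak of 1 of the 8 pairs along the cluster and 50 kb on either side, labelled by the member it lies at and by where the crypts peak starts from the Reg3b start site. The left panel gives the percent of peaks of its own list with a lower score, and the right panel the width in kb. The villi rank lay below the crypts rank in each of the 8 pairs, with a difference of −3.16 points in the closest pair.

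Reg4 (ENSMUSG00000027876.4, chr3:98222156-98236748, 14593 bp), which encodes a lectin found in enteroendocrine, goblet and other secretory cells, had no H3K4me3, H3K4me1 or H3K9me3 peak in its window in either compartment, and H3K27me3 peaks in both. In crypts 2 peaks reached its window. They were chr3:98226850-98229317 within an intron, 2468 bp, with a score of 12.6, and chr3:98241036-98241601 beyond the gene, 566 bp, with a score of 10.1. In villi 7 peaks reached the window, from 422 to 5882 bp wide. They covered 65.6% of the window and 67.6% of the gene body, against 12.3% and 16.9% in crypts. H3K27me3 covered at least 50% of the body of Reg4 in villi, as it did at 760 of all genes, 3.46%. In crypts it did so at no member and at 2.42% of all genes.

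Both crypts peaks of Reg4 had wider counterparts in villi, as did 79.2% of all H3K27me3 pairs of 1 with 1. The intronic peak overlapped chr3:98224501-98230382, 5882 bp, wider by 1.25 on the log2 scale, and the one beyond the gene overlapped chr3:98240798-98243950, 3153 bp, wider by 2.48. The villi peak that scored highest in the window was chr3:98219220-98221770, which ended 386 bp upstream of the start site, at 19.7 above 70.4% of its list. The villi peak chr3:98222183-98222789, 607 bp, began 27 bp downstream of the start site. The 250 bases printed for Reg4 fell between these peaks and were covered by no peak of any of the 8 lists. Over the other stretches printed, H3K4me1 covered all 250 bases of Reg3b, Reg3a, Reg1 and Reg3g in crypts and of Reg3a, Reg1 and Reg3g in villi, and H3K27me3 covered all 250 of Reg1 in villi.

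The H3K27me3 of Reg4 was part of a wider stretch. Over Reg4 and 30 kb on either side, 74593 bp, 4 crypts peaks covered 7.51% and 17 villi peaks covered 63.4%, against 0.677% and 1.14% of chromosome 3. Each of the 4 crypts peaks overlapped a villi peak, as did 90.4% of all crypts H3K27me3 peaks. The crypts numbering runs over 17 calls here, of which 13 are not in the list, and the villi numbering over 20, of which 3 are not. The crypts list thus leaves out more of what was called at this locus than the villi list. Over the whole H3K27me3 lists, crypts hold 7611 peaks with numbers up to 16211, and villi 13797 with numbers up to 26393. Listed H3K4me1 peaks lay on either side of Reg4 but not at it, 8 in crypts and 6 in villi over the same stretch, and the nearest were 11866 and 20284 bp from the start site. The strongest, chr3:98252925-98255707 in crypts, ranked above 99.1% of its list, and its villi counterpart above 85.7%. Between the H3K4me1 peaks on either side of Reg4, 3 numbers are missing in 35082 bp in crypts and 2 in 48583 bp in villi. The places of these calls are not known here. Of 6 H3K4me1 pairs whose crypts peak reached this stretch, 6 were narrower and 5 ranked lower in villi. The villi peak of the rightmost pair starts beyond the stretch. No H3K4me3 or H3K9me3 peak lay in the stretch in either compartment.

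**Figure D4:**
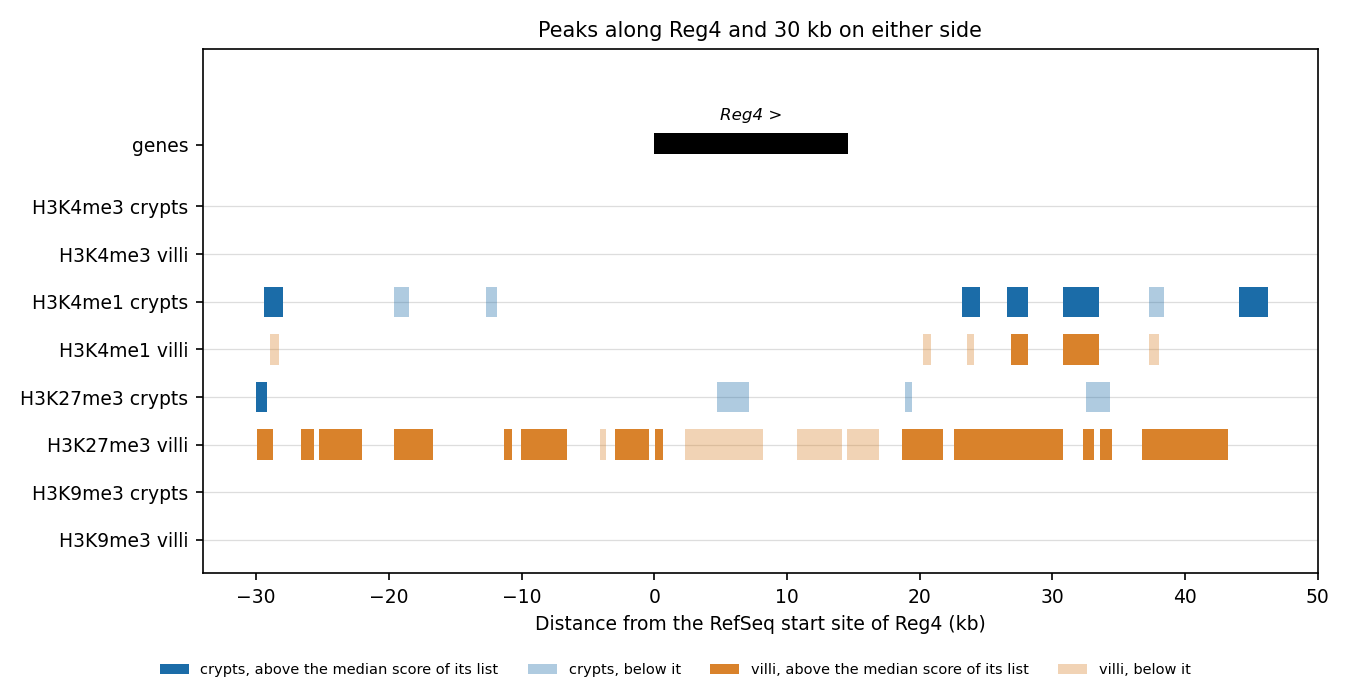
Peaks of the 8 lists are drawn as blocks to scale along Reg4 and 30 kb on either side, with the distance in kb from the RefSeq start site of Reg4 on the x axis. Crypts are blue and villi orange, and pale blocks scored below the median of their own list. The 17 villi H3K27me3 blocks run through Reg4 and to either side of it, there are 4 such blocks in crypts, and no H3K4me1 block lies on the gene. The villi counterpart of the rightmost crypts H3K4me1 block starts beyond the stretch and is not drawn.

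Most other antimicrobial genes also lacked H3K4me3 at the start site, whereas genes of the pathways that induce Reg3 had it. Over all protein-coding genes the shares within 1 kb of a start site were, as above, 57.5% in crypts and 57.7% in villi for H3K4me3, 57.7% and 55.9% for H3K4me1, and 13.0% and 16.0% for H3K27me3. Of 16 such genes listed, 15 are protein-coding in the annotation, and Pla2g2a is not. H3K4me3 lay within 1 kb of a start site of 2 in crypts, Lypd8 and Nos2, the latter an intracellular nitric oxide synthase and not a secreted protein, and of 3 in villi, where Ang4, a Paneth cell ribonuclease, was added. Lyz1, Lyz2, Retnlb, Mptx1, Mptx2 and Itln1 were among the 12 without it in either compartment. By the same criterion H3K4me1 lay at 5 of 15 in both compartments, Lyz1, Itln1, Zg16, Lypd8 and Nos2, and H3K27me3 at none in crypts and at Zg16 in villi. In the 5 kb window H3K27me3 reached 1 in crypts, Zg16, and 3 in villi, Zg16, Retnlb and Lypd8, against 17.9% and 23.0% of all genes. Of 10 receptor and signalling genes, among them Il22ra1, Stat3 and Myd88, 9 had H3K4me3 within 1 kb of a start site in crypts and 9 in villi, all but Tlr4. H3K4me1 lay within 1 kb of a start site of 9 of the 10 in crypts and 8 in villi, where Il10rb had none that close. In the 5 kb window it reached 9 in each, against 69.2% and 68.9% of all genes. H3K27me3 lay within 1 kb of a start site of Il6ra in both compartments and of Tlr2 in villi, and it reached the windows of both genes in both compartments. H3K9me3 reached the windows of Il22ra1 and Il6st in crypts and of none in villi, against 3.91% and 3.12% of all genes.

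The compartments were checked with marker genes by H3K4me3 within 1 kb of a start site. Of 6 genes of stem cells and crypts, 6 had it in crypts and 5 in villi, where Olfm4 lacked it, and 7 of 7 enterocyte genes had it in both. Of 5 Paneth cell genes 0 had it in crypts and 1 in villi, of 5 goblet cell genes 2 and 2, and of 3 enteroendocrine genes none in either. Of 2 immune genes, Ptprc and Cd3e, 0 had it in crypts and 2 in villi, and of 3 mesenchymal genes 0 and 1. Of 3 pancreatic genes 1 had it in each compartment, and the liver gene had it in neither. H3K27me3 lay within 1 kb of a start site of 2 crypt genes in either compartment and of no enterocyte, Paneth, pancreatic or liver gene. It lay at 1 goblet cell gene in crypts and 2 in villi, at all 3 enteroendocrine and all 3 mesenchymal genes in both, and at 0 immune genes in crypts and 1 in villi, Cd3e. The part of such cells in the peaks at the Reg genes was not tested.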

How the data were processed

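ChIP-seq libraries of mouse small-intestinal crypts and villi were analysed from 10 of 12 libraries, 1 per compartment and modification. Files of the 2 inputs were not used here. According to the methods and the submitters' processing notes, the authors used Bowtie 1.1.2 for alignment to the mouse (mm10) and fly (dm6) genomes, samblaster against duplicates, left out reads of both genomes and called peaks per library with MACS2 2.1.1 at a p-value of 1e-10, with no pooling stated. The deposited lists give each peak a value taken as the −log10 p-value, since none is under 10. A q-value on that scale cannot be told apart from it. The value depends on the depth of its library, is not scaled by the spike-in and was used only to rank peaks within a list.

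A peak was assigned to a gene when it overlapped the gene body with 5 kb on either side by at least 1 bp, and to a start site when it lay within 1 kb of a protein-coding start of GENCODE M21. Peaks of crypts and villi were paired where they overlapped by at least 1 bp, and widths and ranks were compared in pairs of 1 with 1. Promoter stretches and start sites came from RefSeq (GRCm38.p6), in which all 5 members matched by symbol, and repeats from soft-masking of the reference. Every listed peak lies within the chromosome lengths of GRCm38. Values were computed with Python 3.11.15 and NumPy 2.4.6, and figures drawn with Matplotlib 3.10.9. The overlap code was tested on simulated data.

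With 1 library per group no test between compartments was made. The share of all protein-coding genes that met the same criterion stands beside the counts of members. The genes named are the 5 members, Reg2 and Reg3d, the nearest protein-coding genes beside the cluster and Reg4, 2 lists of antimicrobial defence genes and lists of cell markers. Of the defence genes, those with H3K4me3 at a start site in 1 compartment alone and up to 6 without it in either were named, and other defence genes in the text were chosen after their values were seen. Some items that the rules and lists would name are not reported here, and the stretch of 30 kb on either side of Reg4 was chosen after its values were seen. The members and lists were chosen with earlier results of these data known. Alternatives covered the window, peaks in the top 50% of their list, the overlap that counts as shared and merging of peaks under 1 kb apart. The count of peak numbers was added after the lists were seen.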

Additional observations from a re-analysis of the deposited data

How the results depend on the processing

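The counts of members with a peak, of peaks along the cluster and of shared peaks were recomputed under other settings, and 75 values stayed close to the count reported, while 27 moved by more than 1.5 times. Merging peaks under 1 kb apart and asking for an overlap of 200 bp moved none. No paired analysis was possible because each compartment and modification had 1 library.

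The share of all protein-coding genes under the same setting follows each count of members. With the gene body alone, H3K9me3 reached 0 members in crypts (2.88%) and 0 in villi (2.36%). With 10 kb on either side, H3K4me1 in villi reached 5 members (71.4%). With 50 kb, H3K4me3 in crypts reached 3 (75.9%), H3K4me1 in villi 5 (79.5%), H3K27me3 in villi 4 (45.2%) and H3K9me3 4 in crypts (12.4%) and 4 in villi (10.5%), and members of the cluster then reach the same peaks. Within 1 kb of a start site, H3K27me3 in crypts (13.0%) and H3K9me3 in crypts (0.378%) and villi (0.310%) reached 0.

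In the top 50% of each list by score, H3K4me3 in crypts reached 0 members (45.6%), H3K4me1 in villi 0 (53.3%), and H3K27me3 0 in crypts (12.7%) and 1 in villi (17.7%), which was Reg4. Along the cluster the top 50% held 0 H3K4me3 and 1 H3K9me3 peak in crypts and 0 H3K4me1 and 0 H3K27me3 peaks in villi. In the top 50% of both lists, 0 crypts H3K4me1 peaks and 0 crypts H3K27me3 peaks at the members were shared.

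With 50 kb on either side of the cluster, and likewise out to the flanking genes, H3K4me1 gave 15 peaks in crypts and 9 in villi. Counted by peak number, H3K27me3 gave 5 in villi. At a reciprocal overlap of 50%, 0 of the H3K27me3 peaks of crypts at the members were shared. The causes were not tested.

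The lists hold no reads and stop at a threshold, so an absent peak is not an absent mark. Villi H3K4me1 and H3K27me3 peaks of the cluster all stood outside the top 50% of their lists, and the Reg3g H3K4me3 call rests on a score near the lowest allowed.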
